A study of Sus scrofa with 40 samples.

Results

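Among 9591 oligonucleotide probes for pig skeletal muscle transcripts that were well above background on all arrays, of 15198 in all, 18 gave values in Basque (B) pigs that did not overlap those of Large White (LW) pigs. Each probe was a 60-base oligo on a two-colour array, and its value was the log2 ratio of the pig's processed signal (Cy3) to that of a common reference (Cy5), after the median of the array was subtracted. A probe was selected on these measured values: it had to be well above background in Cy3 on all 40 arrays, as 63.1% of the probes were, and every B value had to lie above every LW value, or every one below. The breed contrast thus chose the probes, and their breed differences are described without a test. A value of 0 corresponds to a probe at the level of the reference once the array median is removed, apart from any dye bias of that probe.

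The samples were Longissimus muscle of 40 pigs with a labelled live weight of 145 kg, castrated males according to the methods of the study. B is a local breed and LW a breed of commercial selection. Each breed gave 20 pigs, of which 10 were kept in conventional housing (slatted floor, indoors) and 10 in alternative housing (bedding with an outdoor area). The pool that served as reference joined RNA of all 40 pigs, each array held 1 pig, and no dye was swapped. Breed cannot be told apart from age or feeding, as the study states. B pigs reached slaughter at a greater age, and feed was rationed by weight without regard to the larger appetite of LW pigs. By the methods the 20 pigs of a breed came from 10 litters, and 1 litter gave 2 pigs that were assigned to the housing systems. The methods also give fewer boars than litters in each breed, and fewer boars in B than in LW. Neither litter nor sire was given in the labels used here. All SDs and SEs thus treat littermates, and pigs that share a sire, as independent pigs. With that limit, the spread between arrays sets the precision, with 20 arrays a breed.

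On single arrays between 10447 and 13441 probes were well above background in Cy3. The median correlation of an array with the other arrays of its breed and housing group over the 9591 probes ranged from 0.0928 to 0.438. It was under 0.2 on 3 arrays: B conventional replicate 10 (0.199), LW conventional replicate 8 (0.130) and LW alternative replicate 13 (0.0928). Without these 3 arrays, a choice made after seeing the data, 31 probes separated the breeds, 15 with B above LW and 16 with B below. Leaving out arrays can only keep or raise the count, and leaving out any other 3 arrays was not tested.

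Skeletal muscle relies on mitochondria for sustained ATP production and on a steady turnover of RNA and protein to maintain its fibres. Sirtuins of the mitochondrion remove acyl groups from enzymes of energy metabolism in an NAD-dependent way. Enzymes that act on glutathione conjugates clear reactive aldehydes, and factors of ribosome assembly and tRNA quality control serve protein synthesis. Transcripts of each of these kinds were among those named below. Gene symbols were taken only from the study's list of transcripts higher in LW, which was made on these same samples and in which all 40 contigs with several probes carried 1 symbol each. The symbols of its list for B were not used, since 0 of 37 such contigs carried 1 symbol there, so that probes and symbols appeared to be out of step. Hence a symbol for a probe with lower values in B carries no independent evidence of its direction, and probes with higher values in B are unnamed here, which says nothing about their genes.

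The 18 probes were 0.188% of the 9591 probes and were split evenly, 9 with B above LW (0.0938%) and 9 with B below LW (0.0938%). With other processing of the same pigs the count ranged from 5 to 30, as set out in the last section. Among the 9573 other probes, the B mean was the higher for 4746 (49.6%). Where B was above LW, mean differences on the log2 scale ranged from 0.31 to 1.49 with a median of 0.97, that is 1.24-fold to 2.81-fold. Where B was below LW, the differences ranged from -1.42 to -0.50 with a median of -0.97, or 1.42-fold to 2.67-fold in favour of LW. An absolute difference of 1 or more was found for 8 of the 18 probes and for 61 of all 9591, whose median absolute difference was 0.12. Complete separation was thus not the same as a large difference: a probe for PGM1, phosphoglucomutase of glycogen metabolism, had a mean difference of -2.16 and still overlapped by 0.40 (it is named after its values were seen). In bulk muscle, fewer cells of a type and less RNA per cell cannot be told apart.

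The gap, defined as the lowest value of the higher breed minus the highest value of the lower breed, was widest among the probes with B below LW, where it ranged from 0.00086 to 0.36 with a median of 0.13. Among the probes with B above LW it ranged from 0.050 to 0.14 with a median of 0.10. The gap took up 0.172% to 37.6% of the mean difference in the former direction and 3.97% to 23.2% in the latter. Within-breed spread was ordinary: the median over the 18 probes of the SD pooled over both breeds was 0.22, as it was 0.22 over all 9591 probes. The SD was larger in B than in LW for 4 of the 18 probes.

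SIRT3, the main deacetylase of the mitochondrial matrix, was lower in B than in LW. Its log2 ratio had a lowest value of -0.80, a median of -0.44 and a highest value of -0.11 in B, against 0.25, 0.70 and 1.10 in LW. The means were -0.45 ± 0.16 in B and 0.71 ± 0.20 in LW (SD, n = 20 each), a difference of -1.16, or 2.24-fold. The gap of 0.35 lay around 0, with all B values below 0 and all LW values above it. This gap narrowed to 0.12 with normexp background correction and median centring, and to 0.19 with plain slide means subtracted. The normexp settings here and below started from mean signals without the dye normalisation of the scanner software. With fitted slide terms subtracted it was 0.49. At 6.35 times the pooled SD, the difference of SIRT3 was the widest of all 18 probes relative to the spread within breeds.

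STRA13, a small histone-fold protein of the centromere and of DNA repair complexes, showed a similar arrangement. Values ran from -0.65 to -0.31 with a median of -0.43 in B and from 0.056 to 0.72 with a median of 0.55 in LW. The means were -0.46 ± 0.10 and 0.50 ± 0.19 (SD, n = 20 each), a difference of -0.97, with a gap of 0.36. B pigs were tightly grouped here, with the smallest B SD of any probe on which B was below LW.

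The widest gap of all, 0.36 (0.3649 against 0.3633 for STRA13), and the largest difference with B below LW both belonged to AJ664616.1_1012, a probe without a symbol. Its values in B had a lowest of -1.09, a median of -0.78 and a highest of -0.39, and in LW a lowest of -0.026, a median of 0.69 and a highest of 1.17. Both edges of its gap, B conventional replicate 10 and LW conventional replicate 8, were arrays with a median correlation under 0.2 with their group. The means were -0.78 ± 0.19 in B and 0.63 ± 0.27 in LW, a difference of -1.42 or 2.67-fold. With normexp background correction the breeds overlapped on this probe, with a gap of -0.16 after median centring and of -0.067 after loess. SIRT3 and STRA13 still separated the breeds, with narrower gaps of 0.12 and 0.14 after median centring and of 0.28 and 0.22 after loess. The difference of AJ664616.1_1012 was then -0.95 and -1.03, smaller than that of ESD (-1.08 and -1.10). With the series matrix values its gap was 0.075, against 0.36 for SIRT3 and 0.31 for STRA13 (0.37 for this probe without the 2 matrix columns that correlated least with the scanner values), so its first place holds for the main values and not for all.

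GLOD4, which codes for a protein with glyoxalase domains, was measured by the only contig with more than 1 probe among the 18. On the probe CF359383.1_885 values ran from -1.07 to -0.24 (median -0.63) in B and from -0.033 to 1.42 (median 0.60) in LW. On CF359383.1_1006, of the same contig, they ran from -0.82 to -0.11 (median -0.43) in B and from -0.033 to 0.78 (median 0.38) in LW. Both probes separated the breeds, the former with a difference of -1.26 and a gap of 0.21 and the latter with a difference of -0.89 and a gap of 0.074. With normexp and median centring the breeds overlapped on both, with gaps of -0.018 and -0.099 and differences of -0.89 and -0.64, and with plain slide means subtracted they overlapped on the former, with a gap of -0.18. The difference between the probes was thus -0.37 for the same pigs and the same contig, with LW pigs more spread on the former (SD 0.39 against 0.20). After the mean of each breed by housing group was removed, the correlation between them over 40 pigs was 0.68, and they shared no stretch longer than 7 bases.

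ESD, the S-formylglutathione hydrolase of formaldehyde detoxification, differed from the others in its spread. On CA779808.1_74 values in B had a lowest of -1.46, a median of -0.070 and a highest of 0.16, and in LW a lowest of 0.21, a median of 0.73 and a highest of 1.05. Within B, 7 pigs lay between -1.46 and -1.13 and the 13 others between -0.35 and 0.16, with a step of 0.79 between them. The lower values came from 3 conventional and 4 alternative pigs. The mean difference of -1.18 was therefore only 2.42 times the pooled SD, the smallest such ratio of the 18, and the SD of B was 0.66 against 0.20 in LW. On 2 probes of other contigs with the same symbol, B was also lower on average, by -0.58 and -0.38, but the breeds overlapped by 0.41 and 0.30. Separation on CA779808.1_74 was lost with normexp (gap -0.14 after median centring, -0.0011 after loess), with Cy3 alone (-0.34) and once slides were adjusted for (-0.27 with fitted slide terms, -0.64 with plain slide means).

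RBM19, a nucleolar RNA-binding protein needed for ribosome assembly, ranged from -1.03 to 0.031 (median -0.43) in B and from 0.16 to 1.12 (median 0.51) in LW. The mean difference was -0.94 and the gap 0.13. DTD1, which removes D-amino acids from mischarged tRNA, ranged from -0.60 to -0.21 (median -0.41) in B and from -0.21 to 0.38 (median 0.13) in LW. Its mean difference was -0.50 (means -0.41 ± 0.13 and 0.096 ± 0.17), the smallest among the probes with B below LW. Its separation was lost under most other processing, such as the series matrix values (gap -0.052) or values without median centring (-0.0096). The remaining probe of this direction, without a symbol, had a difference of -0.77 and a gap of 0.053.

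The 9 probes with B above LW are given without symbols, as those of the list for B were not used. The largest difference of all 18 was that of BI339314.1_653, whose values ran from -0.36 to 1.08 (median 0.48) in B and from -1.90 to -0.46 (median -0.96) in LW. The means were 0.41 ± 0.35 and -1.08 ± 0.45 (SD, n = 20 each), a difference of 1.49 or 2.81-fold, and the gap was 0.10. That gap was 0.012 with normexp and median centring, 0.32 with Cy3 alone and 0.33 with fitted slide terms subtracted. AJ656119.1_778 had the widest gap of this direction, 0.14, with values from -0.19 to 0.75 (median 0.22) in B and from -1.06 to -0.33 (median -0.67) in LW. Its difference was 0.88. This rank holds for the main values: with normexp and median centring the breeds overlapped on it (gap -0.22), and with the series matrix values its gap was 0.11, against 0.15 for another probe of this direction. The other 7 probes of this direction had differences of 0.31 to 1.36 and gaps of 0.050 to 0.13, and their SDs lay between 0.074 and 0.39 in B and between 0.097 and 0.37 in LW. With normexp and median centring only 2 of the 9 probes of this direction separated the breeds, BI339314.1_653 among them.

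At the edge of the rule, DTD1 was the probe just inside, its highest B pig at -0.2080 and its lowest LW pig at -0.2071. The next were ESD with a gap of 0.049 and CD572816.1_109 with a gap of 0.050, the latter named after its values were seen. With normexp the breeds overlapped on CD572816.1_109, with a gap of -0.90 after median centring and of -0.025 after loess. Just outside were CD572816.1_189, whose breeds overlapped by 0.0017, and then probes that overlapped by 0.011, 0.012 and 0.038. A further 2 probes separated the breeds without being well above background on all arrays. One had a difference of -1.24 and was well above background on 8 of 20 B arrays and on all 20 LW arrays, and the other had a difference of 1.48 and was well above background on 19 B arrays and 1 LW array.

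The 18 probes came from 17 contigs, and 14 of them were the only probe of their contig on the array. Apart from the pair for GLOD4, 2 probes had a companion that did not meet the rule. CD572816.1_109 had a difference of 0.35 (means 0.25 ± 0.10 in B and -0.11 ± 0.11 in LW), and its companion CD572816.1_189, the nearest probe outside the rule, had 0.34 (means 0.17 ± 0.086 and -0.16 ± 0.098). On the companion 19 of 20 B pigs lay above all LW pigs, and the correlation of the pair within groups was 0.84. For DTD1 the companion C94635.1.s_1128 had a difference of only -0.17 (means -0.24 ± 0.15 and -0.077 ± 0.17) against -0.50, and its breeds overlapped by 0.41. The companion's direction was the same, yet only 4 of 20 B pigs were below every LW pig, although the pair correlated at 0.65 within groups. All companions were well above background on all 40 arrays.

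Housing was not part of the rule and was tested with limma over all 9591 probes, with slide, breed, housing and their interaction in the model. Litter, which pairs pigs across housing systems, could not enter the model. None of the 18 probes, and none of all 9591 (0%), was called between alternative and conventional housing at an adjusted p under 0.05, and the same held within B (0%), within LW (0%) and for the breed by housing interaction (0%). At an unadjusted p under 0.05 there were 442 probes for housing over both breeds, 168 within B, 500 within LW and 210 for the interaction. The same 9591 probes, adjusted for slide where its p was under 0.05 and then submitted to an analysis of variance, gave 0 calls as well, with 390 under 0.05 for housing and 258 for the interaction. Only the order of these steps is that of the study's methods, since its values, spot filters, normalisation between arrays and filter on variability were not used.

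Among the 18, the unadjusted p was under 0.05 for 2 probes for housing over both breeds, 0 within B, 1 within LW and 1 for the interaction. GLOD4 on CF359383.1_885 was higher in alternative housing by 0.22 ± 0.10 (SE), with the same sign in B (0.18) and LW (0.27), and an adjusted p of 0.992 in limma. On the other GLOD4 probe the difference was 0.084 ± 0.065 (SE), with 0.042 in B and 0.13 in LW, and its unadjusted p was 0.206. DTD1 had a difference of 0.099 ± 0.046 (SE), made up of 0.045 in B and 0.15 in LW. For SIRT3 the breed difference was wider in alternative than in conventional housing, with an interaction of -0.26 ± 0.12 (SE), with an adjusted p of 1.00 for the interaction in limma: the median was -0.43 in B and 0.67 in LW in conventional housing, and -0.51 and 0.82 in alternative housing. These differences did not pass the correction. Over the 18 probes the median absolute difference between housing systems was 0.053, and over all probes 0.046. The interaction had a median absolute size of 0.093 over the 18 probes and 0.081 over all probes.

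With 10 pigs of each breed in 1 housing system only, fewer values have to lie apart. In conventional housing 77 probes (0.803%) separated the breeds, 50 with B above (0.521%) and 27 with B below (0.282%). In alternative housing there were 74 (0.772%), of which 25 had B above (0.261%) and 49 had B below (0.511%). The balance of directions was thus opposite in the 2 systems, and this difference was not tested.

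Both breeds were present on each of the 7 slides, which had been scanned over 3 days. Slides held 2 to 7 of these arrays, so on the smallest the within-slide difference was that of 1 pig against 1. For all 18 probes the mean of B minus that of LW within each slide had the sign of the overall difference, as complete separation requires. Within slides it ranged from -1.37 to -0.91 for SIRT3, from -1.14 to -0.72 for STRA13, and from 0.93 to 1.87 for BI339314.1_653. The widest range, in log2 units, was that of ESD, from -2.20 to -0.42. With slide in the model the breed coefficient was -1.17 ± 0.058 (SE) for SIRT3, -1.15 ± 0.16 for ESD and 1.46 ± 0.11 for BI339314.1_653.

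Within breed and housing groups the probes varied largely apart from each other. Of 153 pairs, 75 had a correlation above 0 over the 40 pigs, and the median was 0.013 for pairs of the same direction and -0.020 for pairs of opposite direction. Only the GLOD4 pair reached 0.5 or more, and the lowest correlation was -0.40, between RBM19 and CD572816.1_109. These points share array, slide and pool. The pigs at the edge of the gap were likewise spread: 23 of the 40 pigs were the lowest of the higher breed or the highest of the lower breed on at least 1 probe, and no pig on more than 3.

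With no dye swapped, a dye bias of a probe moves all its pigs alike against 0, so the place of 0 is a description only. The pool, at 0, lay in the gap for 4 of the 18 probes. It fell within the range of the higher breed for 10 and within that of the lower breed for 4. Of the 720 spots behind the 18 probes, 1 was marked as an outlier and 0 as saturated, and all 18 were well above background in Cy5 on all 40 arrays. The Cy3 signal of SIRT3 had a median of 725 in B and 1770 in LW, and that of BI339314.1_653 one of 5094 and 1905.

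The 60-base sequences had a median GC content of 35%, from 35% to 55.0%, against a median of 43.3% over all 9591 probes. A GC content of 35% was found for 10 of the 18 and for 23.8% of all probes. No stretch longer than 12 bases was shared by any pair of the 18, on either strand. The array's annotation table was not at hand, and a probe without a usable symbol is identified here by its bases, so the sequences are given for the probes with the widest gap and the largest difference in each direction, for SIRT3 and for both probes of GLOD4. They are as deposited, 5′ to 3′, with no part set apart in capitals:
SIRT3 CF361290.1_1538: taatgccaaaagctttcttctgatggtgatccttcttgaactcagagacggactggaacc
AJ664616.1_1012: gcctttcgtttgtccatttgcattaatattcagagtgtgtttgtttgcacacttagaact
GLOD4 CF359383.1_885: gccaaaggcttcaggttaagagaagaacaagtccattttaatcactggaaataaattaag
GLOD4 CF359383.1_1006: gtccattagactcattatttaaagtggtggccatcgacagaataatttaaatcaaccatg
AJ656119.1_778: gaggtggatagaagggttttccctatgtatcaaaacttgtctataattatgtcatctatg
BI339314.1_653: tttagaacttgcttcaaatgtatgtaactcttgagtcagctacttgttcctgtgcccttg
The place of these probes in their transcripts was not analysed here.

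Genes of muscle metabolism and structure were looked up by symbol. Only 539 of the 9591 probes had a usable symbol, 7 of them among the 18, and all came from the list for LW, so genes higher in B could not be found this way. Of 22 listed genes of the mitochondrion and energy metabolism, 10 had a probe with a usable symbol, 8 of them well above background on all arrays, and SIRT3 and GLOD4 were among the 18. In the other lists 0 of the genes with a usable symbol were among the 18. These were 1 of 12 genes for lipid metabolism, 10 of 16 for the extracellular matrix, 10 of 18 for sarcomere, cytoskeleton and calcium, 1 of 9 for proteolysis and lysosome and 1 of 8 for redox. For the labelled tissue, the fibre markers ACTA1 and MYH1 were well above background on all arrays. Of the markers of other cell types, COL1A2 and DCN of fibroblasts and ACTA2 of smooth muscle had a probe with a usable symbol and were well above background, and none of these was among the 18. Markers of adipocytes, blood, endothelium, immune cells and satellite cells had no probe with a usable symbol, so their part in the breed differences was not tested.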

How the data were processed

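Scanner files of 40 arrays were used. Per the file headers, the deposited intensity values (processed signals of Cy3 and Cy5) had been background-subtracted and dye-normalised, linear and LOWESS, by Agilent Feature Extraction. The authors' log2 values of the series matrix, for whose processing the submitters' notes name limma, were an alternative. Per the methods these were filtered, median-centred and quantile-normalised on the reference channel. Their array medians ranged from -0.0148 to 0.0261, and they ran in the direction of the ratio used here. On 2 arrays they correlated with the scanner values at 0.684 (B alternative replicate 15) and 0.779 (LW alternative replicate 18), against at least 0.967 on the others.

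Each array's log2 ratio (Cy3 over Cy5) was centred on the median of its 15198 non-control probes. Selection used all spots. For housing, limma 3.58.1 in R 4.3.3 was fitted to 9591 probes, spots marked as outliers in either channel left out, with slide as a fixed term and Benjamini-Hochberg adjustment. The limma script and the selection were run on simulated data. For the selection the simulated breed shifts were far larger than those found here, so its code was checked and its behaviour near the edge was not.

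Symbols came from the probe and symbol columns of the study's list of transcripts higher in LW. The symbols of the list for B were not used. The fold changes of both lists were compared once with measured differences, at an early step, to see whether probes and symbols were in step. No value given here rests on them. All selected probes with a symbol were named, and of those without, the widest gap and largest difference per direction. CD572816.1_109, which met neither rule, was named after its values were seen. Selected probes and gene lists were chosen with earlier results of these data known.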

Additional observations from a re-analysis of the deposited data

Results flagged for a closer look

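Across 44 groups of 10 pigs (the 11 probes named, in each breed and housing group), 7 held a pig far from the other 9. Chance alone gives about 1 in 20 such groups where they are unselected and independent, which these are not, since the same values selected the probes, so 7 of 44 is not held against that rate. In B pigs of conventional housing, replicate 10 was highest for AJ664616.1_1012 (-0.39, next pig -0.67), replicate 8 was lowest for RBM19 (-1.03, next -0.53) and highest for CD572816.1_109 (0.42, next 0.30), and replicate 5 was lowest for BI339314.1_653 (-0.30, next 0.27). In LW pigs of conventional housing, replicate 7 was lowest for STRA13 (0.070, next 0.42), replicate 8 was highest for RBM19 (1.12, next 0.64) and replicate 9 was highest for GLOD4 on CF359383.1_1006 (0.69, next 0.49). All 7 were in conventional housing, a difference that was not tested. B replicate 10 and LW replicate 8 were also among the 3 arrays that correlated least with their group.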

How the results depend on the processing

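The count of 18 was set by the values at the edge of each breed. It fell to 5 (2 with B above and 3 with B below, all 5 among the 18) with normexp background correction and median centring. Both normexp settings started from the mean signals of the spots, with an offset of 50, and not from the processed signals. The dye normalisation of Feature Extraction was thus left out, and with median centring nothing took the place of its LOWESS step. The count rose to 30 (15 and 15, 17 of the 18 retained) once slide terms fitted beside breed and housing were subtracted. That step keeps the breed contrast whole. With plain slide means subtracted, an alternative added later, it was 18 (9 and 9), but only 12 of the 18 were retained. The cause was not tested. With fewer pigs it was 77 (50 and 27) in conventional housing alone, 74 (25 and 49) in alternative housing alone, and 31 (15 and 16) without the 3 arrays that correlated least with their group, chosen after seeing the data. With each pig left out in turn, which can only keep or raise the count, it ranged from 18 to 21, from 9 to 11 in either direction. Under the other alternatives it lay between 13 (normexp with loess, 12 of the 18 retained) and 22 (series matrix values without 2 columns). SIRT3, RBM19 and BI339314.1_653 separated the breeds under all 9 settings of the values that changed their gap and STRA13 under all 8, but GLOD4 on CF359383.1_1006 and AJ656119.1_778 under 8 of 9, GLOD4 on CF359383.1_885, AJ664616.1_1012 and CD572816.1_109 under 7 of 9, ESD under 4 of 9 and DTD1 under 2 of 9. The breed differences of the named probes and 2 companions kept their sign in all 81 recomputations with other values and moved by over 1 SD in 6, all with normexp.

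For housing and the interaction, 0 probes were called under every alternative run. With replicate number as a replicate block, 0 probes were called for the interaction. Same-numbered B and LW pigs share only a number: their deviations correlated between -0.377 and 0.283, over 0.1 in 5 of 20 pairs. Signal over background limits the values of dim probes, and the number of arrays limits precision.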
